A study of Mus musculus with 23 samples.

Results

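The genes described here are 10 genes of MHC class II antigen presentation and of dendritic cells, taken by symbol from a table of 48897 genes: *H2-Aa*, *H2-Ab1*, *H2-Eb1*, *H2-DMa*, *Cd74*, *Ciita*, *Itgax*, *Flt3*, *Clec9a*, and *Batf3*. All 10 were found, each on 1 line. They were followed over 23 libraries of poly(A) RNA from male BALB/c mice, 4 to 6 weeks old when divided into groups. Control livers came from 5 sham-operated mice that received serum-free medium in the cecal wall. Pre-metastatic livers and primary tumors came from the same 9 mice, whose cecal wall was injected with CT26 cells, a colon carcinoma line of the BALB/c strain, and which were killed 3 weeks later. No genetic change or drug distinguished the groups. The tumors all grew from 1 cell line placed in an immunocompetent host, and every library was made from a whole piece of tissue.

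MHC class II molecules display peptides from ingested proteins to CD4+ T cells. An alpha and a beta chain (*H2-Aa* with *H2-Ab1* for the A molecule, *H2-Eb1* for the beta chain of E) assemble around the invariant chain encoded by *Cd74*, and H2-DM, of which *H2-DMa* encodes the alpha chain, exchanges the last invariant chain fragment for a peptide. *Ciita* encodes the coactivator that switches these genes on together, by binding factors that sit on a shared set of promoter boxes. B cells, macrophages, and dendritic cells carry class II constantly, and interferon gamma induces it in many other cells. *Itgax* encodes CD11c, carried by dendritic cells and by many activated macrophages, and *Flt3* the receptor for the growth factor of dendritic cells. *Clec9a*, a receptor for dead cells, and *Batf3*, a transcription factor, mark conventional dendritic cells of type 1 (cDC1). In the liver the resident macrophages, the Kupffer cells, add to class II expression.

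In mm10, 4 of the genes lie together in the MHC: *H2-DMa* at chr17:34122719-34139101, *H2-Ab1* at chr17:34263227-34269418, *H2-Aa* at chr17:34282751-34287771 on the minus strand, and *H2-Eb1* at chr17:34305867-34316674. *Ciita* is at chr16:10480014-10528606, *Itgax* at chr7:128129530-128150657, *Flt3* at chr5:147330741-147400489 on the minus strand, *Clec9a* at chr6:129408862-129424764, and *Batf3* at chr1:191098414-191108943. *Cd74* lies outside the MHC on another chromosome. All 10 are listed as protein-coding. *Ciita* overlaps *Dexi* on the other strand and *Clec9a* overlaps *Clec12b* and *Clec1a*, so reads there cannot be told apart if strand was not used, which is not given in the sources used here.

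Boxes of this kind were looked for in the promoters. RefSeq promoter windows of mouse build GRCm38.p6, from 250 bases before to 50 bases after each start, were at hand for 7 of the 10 genes and were searched on both strands for the core of the class II X box and for the Y box (ATTGG), which does not overlap it here. The stretches from 110 to 31 bases before the start are shown for *H2-Eb1* (chr17:34305757-34305836, plus strand), *H2-Aa* (chr17:34287854-34287933, minus strand), and *H2-DMb1*, the beta chain of H2-DM (chr17:34153081-34153160, plus strand). The first and second are the chains with a window. *H2-DMb1*, not among the 10 genes, is shown beside them as an example of a window with both boxes. The windows of the class II genes *H2-Oa* and *H2-Eb2*, not shown, also hold both. Each is written 5′ to 3′ on the gene's strand, with the letters of either box in capitals.
H2-Eb1: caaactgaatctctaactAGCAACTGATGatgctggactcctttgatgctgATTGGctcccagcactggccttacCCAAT
H2-Aa: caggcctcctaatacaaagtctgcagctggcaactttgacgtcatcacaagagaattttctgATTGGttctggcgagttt
H2-DMb1: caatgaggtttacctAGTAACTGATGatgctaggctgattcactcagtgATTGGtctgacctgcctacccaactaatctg
In *H2-Eb1* the X core began 92 bases and the Y box 59 bases before the start, with a second Y box on the other strand at 35 bases, and in *H2-DMb1* they began at 95 and 61 bases. The *H2-Aa* window held the Y box at 48 bases and no match to the X core. Only a fixed pattern of 11 letters, some of them free, was searched as the X core, so a window without a match may hold a variant of the box. Of the 7 genes with a window 1 held the X core and 4 the Y box. Among other class II genes, 5 had a window, of which 3 held the X core and 5 the Y box. Of all 32851 windows, 0.968% held the X core, 37.4% the Y box, and 0.387% both. Among the 4 dendritic genes, *Itgax* held a Y box at 178 bases, and the windows of *Flt3*, *Clec9a*, and *Batf3* held neither. *H2-DMa* had 2 windows, of which 1 held a Y box at 198 bases.

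Total counts were 44587556 to 79773163 per library, with no copy among them. The summed RPKM (the read count scaled by gene length and by the library's total) of 6 hepatocyte genes was 31815 to 66117 in the livers of tumor-bearing mice and 6.42 to 267 in the tumors. Of 7 epithelial genes, 2 were higher and 5 lower in the tumors than in pre-metastatic liver (edgeR, median log2 difference -3.01). Their summed RPKM was 42.1 to 118 in the tumors and 191 to 322 in pre-metastatic liver. *Krt20* reached 27.8 to 113 RPKM in the tumors. *Epcam*, a defining epithelial gene, had a median of 0.0622 RPKM there, below the 0.560 RPKM of pre-metastatic liver. A clock index on 6 circadian genes put 9 livers (4 control and 5 pre-metastatic) in an early phase and 5 in a late phase (M12, M10, M2, M1, and the control C7). The index was computed on livers only, and each tumor was given the phase of the liver of the same mouse. Results were therefore also computed in the early phase alone. Reads were placed on the mm10 reference, which carries another class II haplotype than BALB/c. All mice and the CT26 line share that strain, and how many class II reads were lost at mismatched bases was not tested. *H2-Ea-ps*, the E alpha chain, named a pseudogene in the reference annotation, was counted at 5.13 to 339 RPKM in these libraries.

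*Cd74* had the highest mean level of the 10 genes in every group and *Flt3* the lowest. *Cd74* reached a mean of 52.4 RPKM in control liver, 136 RPKM in pre-metastatic liver, and 315 RPKM in the primary tumor, above 95.7%, 98.4%, and 99.4% of the genes with counts in those groups. The chains *H2-Ab1*, *H2-Eb1*, and *H2-Aa* followed within each group at 12.7 to 14.8 RPKM, 31.5 to 39.3 RPKM, and 76.8 to 88.9 RPKM, and the order among them was smaller than the spread between mice. The other 6 genes were at means of 0.0274 to 0.621 RPKM in control liver, 0.0767 to 1.15 RPKM in pre-metastatic liver, and 0.149 to 5.92 RPKM in the tumor. RPKM depends on the gene length used: the table gives *H2-DMa* 6798 bases, 1.97 times the exons of the GENCODE annotation, and *H2-Aa* 1069 bases, 0.281 times, so the order between genes holds only for these lengths, and *H2-DMa* cannot be ranked against the chains from it.

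**Figure D1:**
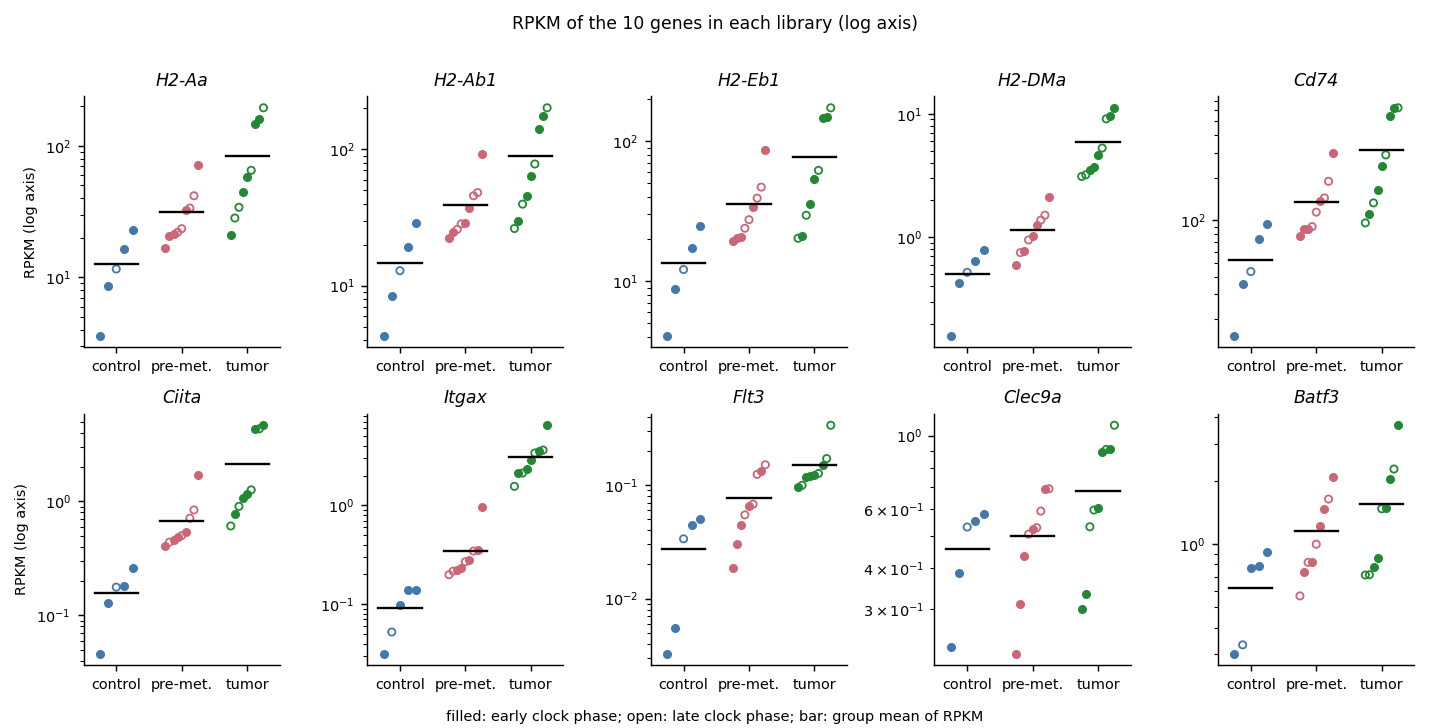
RPKM (log axis) of each of the 10 genes in the 5 control livers, 9 pre-metastatic livers, and 9 primary tumors, 1 point a library, with a bar at the group mean. Points are filled for the early and open for the late clock phase, which for a tumor is that of the same mouse's liver. On this scale the mean of each gene is lowest in control liver and highest in the tumor, an order that turns for *Clec9a*, *Batf3*, *Flt3*, and *H2-Eb1* between pre-metastatic liver and tumor under TMM scaling, and *Ciita* and *Itgax* do not overlap between the livers.

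The first comparison asks how the liver of a tumor-bearing mouse differs before metastasis from a liver with no tumor elsewhere. All 6 class II genes rose in pre-metastatic liver, by 2.39-fold (*H2-DMa*) to 4.43-fold (*Ciita*), and so did *Itgax* and *Batf3*, whereas *Flt3* and *Clec9a* did not pass the test. In counts, 8 of the 10 genes were higher and 0 lower by edgeR's quasi-likelihood test at an adjusted *p* under 0.05, where 17.7% of the 16989 genes tested were higher and 13.3% lower (31% in either direction). The median log2 difference of the 10 genes was 1.44, against 0.01 over all genes tested. In bulk tissue, more cells of a type and more RNA per cell cannot be told apart, here and in all that follows.

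*Ciita*, the coactivator, was at 0.0463, 0.182, 0.260, 0.128, and 0.177 RPKM in control mice C1, C4, C5, C6, and C7, and at 0.407 to 1.69 RPKM in pre-metastatic liver, with a median of 0.501. Every pre-metastatic liver lay above every control liver. The log2 difference was 2.15 ± 0.38 (SE, n = 9 and 5, edgeR adjusted *p* = 0.000791). *Itgax* was at 0.0317, 0.139, 0.140, 0.0984, and 0.0523 RPKM in the same control mice and at 0.199 to 0.970 RPKM, median 0.269, in pre-metastatic liver. These groups did not overlap either, and the log2 difference was 1.93 ± 0.42 (edgeR adjusted *p* = 0.00311). Of all genes tested, 4.85% were higher and 6.09% lower in pre-metastatic liver with no overlap. The scaling moved the split of all calls: TMM gave 3010 genes higher and 2261 lower, and limma on log2(RPKM + 0.1) gave 2294 and 2977, while 7 of the 10 genes stayed higher and 0 were lower there.

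*Cd74* was at 15.2, 73.3, 94.6, 35.5, and 43.5 RPKM in control mice C1, C4, C5, C6, and C7, and at 77.7 to 298 RPKM, median 114, in pre-metastatic liver. Control mouse C5 lay within the range of the tumor-bearing mice, and 5 of the 9 pre-metastatic livers lay above all control livers. The log2 difference was 1.43 ± 0.37 (edgeR adjusted *p* = 0.00920). The 3 chains went the same way, with overlap in each. *H2-Ab1* was at 4.26, 19.3, 29.0, 8.42, and 12.9 RPKM in the control mice and at 22.4 to 92.7 RPKM, median 28.9, in pre-metastatic liver, a log2 difference of 1.47 ± 0.39 (edgeR adjusted *p* = 0.0107). *H2-Eb1* rose by 1.45 ± 0.39 on the log2 scale (adjusted *p* = 0.0111) from 4.07, 17.3, 24.8, 8.80, and 12.1 RPKM to 19.4 to 86.6 RPKM, median 27.5. *H2-Aa* rose by 1.37 ± 0.37 (adjusted *p* = 0.0119) from 3.58, 16.6, 23.1, 8.61, and 11.6 RPKM to 16.6 to 71.2 RPKM, median 23.5. Control mouse C1 was the lowest and C5 the highest for all 6 class II genes, and the liver of mouse M5 was the highest of the tumor-bearing group for all 6. *H2-DMa* was at 0.158, 0.638, 0.784, 0.423, and 0.519 RPKM in control liver and at 0.592 to 2.12 RPKM, median 1.03, in pre-metastatic liver, a log2 difference of 1.25 ± 0.31 (edgeR adjusted *p* = 0.00732).

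Among the cDC1 genes, *Batf3* was at 0.302, 0.789, 0.913, 0.770, and 0.332 RPKM in control mice C1, C4, C5, C6, and C7, on 13 to 39 counts, and at 0.568 to 2.08 RPKM, median 0.999, in pre-metastatic liver. Its log2 difference was 0.94 ± 0.34 (edgeR adjusted *p* = 0.0469), and it lost the call when any 1 of 9 of the 14 livers was left out (C1, C4, C6, C7, M1, M4, M5, M8, or M10; highest adjusted *p* = 0.117). *Clec9a* was at 0.231, 0.581, 0.384, 0.553, and 0.531 RPKM in control liver and at 0.221 to 0.692 RPKM, median 0.523, in pre-metastatic liver. The ranges nearly coincide, and the log2 difference was 0.22 ± 0.26 (edgeR adjusted *p* = 0.569). *Flt3* was close to the counting limit, with 1 to 18 counts per control liver and 5 to 48 per pre-metastatic liver. It stood at 0.00556, 0.0442, 0.0504, 0.00329, and 0.0336 RPKM in control liver and at 0.0187 to 0.151 RPKM, median 0.0653, in pre-metastatic liver (log2 difference 1.54 ± 0.59, edgeR adjusted *p* = 0.0608; DESeq2 adjusted *p* = 0.0250). All 10 genes passed the filter of 10 counts in at least 5 livers, *Flt3* and *Itgax* only with the help of pre-metastatic livers, since 3 and 4 of the 5 control livers reached 10 counts.

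Among the 9 early-phase livers alone (5 pre-metastatic, 4 control), the call held for 2 of the 8 genes, *Ciita* (log2 difference 2.23, edgeR adjusted *p* = 0.00995) and *Itgax* (2.01, adjusted *p* = 0.0163). The 5 other class II genes kept log2 differences of 1.23 to 1.45 there with adjusted *p* values of 0.0509 to 0.0736. With the clock phase as a term of the fit on all 14 livers, a fit chosen after seeing the data, the same 8 genes passed, with adjusted *p* values of 0.00116 to 0.0286.

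**Figure D2:**
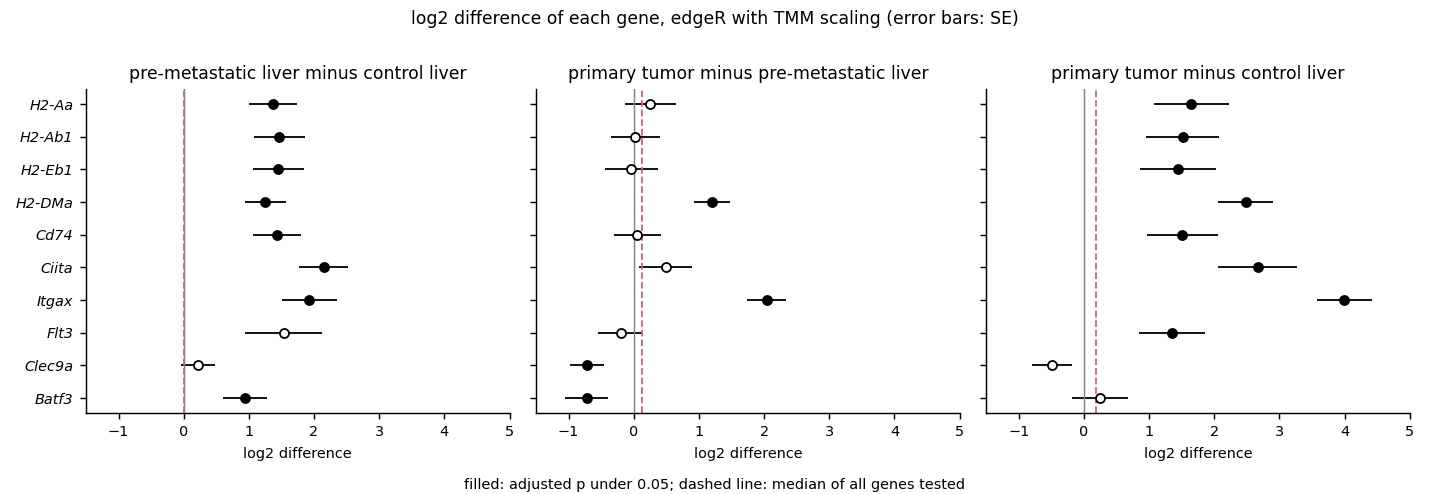
Log2 difference of each of the 10 genes in the 3 comparisons (edgeR with TMM scaling, error bars SE), filled where the adjusted *p* was under 0.05, with a dashed line at the median of all genes tested. In pre-metastatic against control liver 8 genes are filled, all to the right of the median, and in tumor against pre-metastatic liver *Itgax* and *H2-DMa* lie to the right and *Clec9a* and *Batf3* to the left.

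The other genes of the pathway were counted from short lists. Of 4 further class II genes tested, 4 were higher in pre-metastatic liver, with a median log2 difference of 1.61. They include *H2-DMb2* (1.77, edgeR adjusted *p* = 0.00104), a second H2-DM beta chain, and *H2-Ob* (2.19, adjusted *p* = 0.00567), part of an inhibitor of H2-DM. Of 7 factors that sit on the promoter boxes, 0 were higher and 2 lower by edgeR, with a median of -0.13. The lower ones were *Nfya* (-0.81, adjusted *p* = 0.00240), a Y box factor, and *Rfxank* (-0.59, adjusted *p* = 0.0175), an X box factor. Of 7 genes of peptide processing and turnover, 4 were higher and 1 lower (median 1.03), led by *Lgmn* (1.10, adjusted *p* = 8.26e-05) and *Ifi30* (1.04, adjusted *p* = 0.000274), a lysosomal protease and reductase, against *Ctsl* (-1.06, adjusted *p* = 0.00769), another lysosomal protease. Of 7 genes between interferon gamma and *Ciita*, 5 were higher (median 0.65), with the receptor genes *Ifngr1* (0.65, adjusted *p* = 0.000365) and *Ifngr2* (0.69, adjusted *p* = 0.00141) first. *Ifng* itself had a median of 0.0145 RPKM in control and 0.0147 RPKM in pre-metastatic liver and was too low to test.

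Of 10 further cDC1 genes, 6 were higher and 0 lower (median 0.97). *Ly75*, an endocytic receptor, led with 1.51 (edgeR adjusted *p* = 5.34e-05), followed by *Xcr1*, a chemokine receptor held to be close to specific for these cells, with 1.90 (adjusted *p* = 0.00152) at a mean of 0.0305 RPKM in control and 0.112 RPKM in pre-metastatic liver. Of 7 genes of conventional dendritic cells of type 2, 3 were higher (median 1.06), first *Sirpa* (0.97, adjusted *p* = 0.000720) and *Clec4a2* (1.39, adjusted *p* = 0.00925), which macrophages also carry. Of 6 genes of mature dendritic cells, 5 were higher (median 1.37), first *Relb* (1.29, adjusted *p* = 0.00105) and *Fscn1* (1.49, adjusted *p* = 0.00106). Of 5 costimulatory genes 1 was higher, *Cd86* (1.61, adjusted *p* = 0.000653; median 0.95). Of 6 genes of dendritic identity and growth 3 were higher (median 0.90), first *Csf2rb* (1.40, adjusted *p* = 0.000144) and *Csf2ra* (1.01, adjusted *p* = 0.00144), both receptor chains of other myeloid cells too, while *Zbtb46*, a factor of conventional dendritic cells, was at -0.34 (adjusted *p* = 0.258). Of 4 plasmacytoid genes 2 were higher (median 0.51), *Bst2* (0.69, adjusted *p* = 0.00779), an interferon-induced gene, and *Ly6d* (2.31, adjusted *p* = 0.0459).

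Some markers of other leukocyte types were also higher in pre-metastatic liver. *Ptprc*, the gene of the leukocyte antigen CD45, rose by 1.44 on the log2 scale (edgeR adjusted *p* = 0.000419), and 4 of 6 B cell, 5 of 6 Kupffer cell, 6 of 6 monocyte and macrophage, 1 of 6 T and NK cell, and 4 of 5 neutrophil genes were higher, with none lower. The summed RPKM of the Kupffer list went from 56.4 to 116 in control to 114 to 346 in pre-metastatic liver, that of the monocyte and macrophage list from 29.2 to 60.5 to 76.0 to 215, that of the B cell list from 0.644 to 1.43 to 0.818 to 9.47, that of the T and NK cell list from 0.987 to 2.89 to 1.27 to 8.24, and that of the neutrophil list from 6.39 to 17.9 to 7.25 to 118. No marker on these lists was at 0 in all libraries of a group. Of 6 epithelial genes tested, 3 were higher, *Krt19*, *Krt20*, and *Vil1*. *Krt20* was at 0 to 0.0450 RPKM in control liver and highest in the liver of mouse M6 at 1.31 RPKM, whereas *Krt19* (16.3 RPKM), *Vil1* (0.633 RPKM), and *Epcam* (3.12 RPKM) were highest in that of M12. Of 6 hepatocyte genes 1 was lower, *Cps1*, by 1.61. The part of these cells in the class II differences was not tested.

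The next comparison sets the primary tumor against the liver of the same mice, and its directions depend on the scaling. In RPKM, which divides by library totals, mean *Cd74* was 2.32-fold, *H2-Ab1* 2.26-fold, *H2-Eb1* 2.17-fold, and *H2-Aa* 2.66-fold higher in the tumor. The 10 highest genes of a library took 15.0% to 27.9% of the counts in pre-metastatic livers and 4.78% to 5.74% in the tumors. TMM scaling, which the edgeR test uses, set the median factor of the tumors at 1.52 and that of the livers at 0.669. The part of the highest genes in that difference was not tested. Under TMM the median log2 difference of all 19751 genes tested was 0.13, and on log2(RPKM + 0.1) it was 1.03, with 8649 genes higher and 7810 lower under TMM and 13443 and 4195 by limma on RPKM. Differences below are from TMM unless named.

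**Figure D3:**
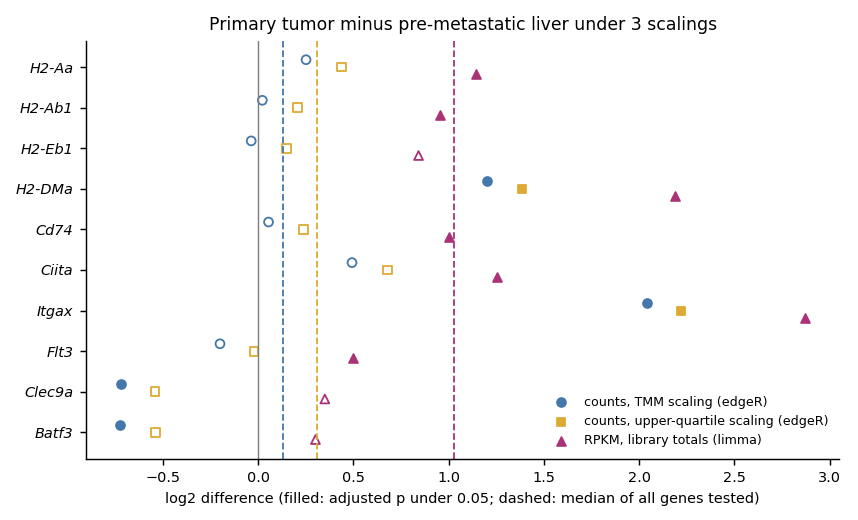
Log2 difference of the 10 genes between primary tumor and pre-metastatic liver under TMM scaling, upper-quartile scaling, and library totals (limma on RPKM), filled where the adjusted *p* was under 0.05, with dashed lines at the median of all genes under each scaling. *Itgax* and *H2-DMa* lie above the medians in all 3, the class II chains and *Cd74* lie close to them, and *Clec9a* and *Batf3* lie below them.

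In this comparison 2 of the 10 genes were higher and 2 lower by edgeR, where 43.8% of all genes were higher and 39.5% lower (83.3% in either direction). *Itgax* was at 1.55 to 6.45 RPKM in the tumors, median 2.86, above every liver, with a log2 difference of 2.04 ± 0.30 (n = 9 and 9, edgeR adjusted *p* = 2.57e-06). *H2-DMa* was at 3.11 to 11.2 RPKM, median 4.67, also above every liver, with 1.20 ± 0.27 (edgeR adjusted *p* = 0.000435). Both kept the call and the direction under every scaling and without any 1 library. Their separation from every liver was seen on RPKM and was not computed under TMM. On RPKM, 52.9% of all genes were higher and 14.2% lower in the tumor with no overlap. The median log2 difference of the 10 genes was 0.04.

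*Cd74* and the 3 chains did not pass the test under TMM. *Cd74* was at 96.0 to 625 RPKM in the tumors, median 241, and its log2 difference was 0.05 ± 0.36 (edgeR adjusted *p* = 0.893). *H2-Ab1* was at 26.2 to 202 RPKM, median 63.7, with 0.02 ± 0.37 (edgeR adjusted *p* = 0.958), *H2-Eb1* at 20.3 to 173 RPKM, median 53.7, with -0.04 ± 0.41 (adjusted *p* = 0.936; 0.84 without a call by limma on RPKM), and *H2-Aa* at 21.0 to 195 RPKM, median 58.3, with 0.25 ± 0.39 (adjusted *p* = 0.554). The tumors spread more widely than the livers: *H2-Aa* covered a 9.27-fold range in the tumors and a 4.29-fold range in pre-metastatic liver. In RPKM, tumors M2, M4, and M5 were above every liver for these 4 genes, whereas the other 6 lay within the liver range. TMM lowers the tumors relative to the livers, and this separation was not computed under it. *Ciita* was at 0.609 to 4.66 RPKM, median 1.17, with the same 3 tumors at 4.32 to 4.66 RPKM and the other 6 at no more than 1.26, and its log2 difference was 0.49 ± 0.41 (edgeR adjusted *p* = 0.264). On log2(RPKM + 0.1), limma called *H2-Aa*, *H2-Ab1*, *Cd74*, *Ciita*, and *Flt3* higher as well (7 genes in all).

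*Clec9a* and *Batf3* were lower in the tumor under TMM and higher without a call on RPKM. *Clec9a* was at 0.301 to 1.07 RPKM, median 0.603, in the tumors, against a median of 0.523 in the livers. Its log2 difference was -0.72 ± 0.26 under TMM (edgeR adjusted *p* = 0.0145), -0.54 under upper-quartile scaling (adjusted *p* = 0.0604), and 0.35 on RPKM (limma adjusted *p* = 0.150). *Batf3* was at 0.713 to 3.67 RPKM, median 1.47, with -0.72 ± 0.33 under TMM (edgeR adjusted *p* = 0.0457), -0.54 under upper-quartile scaling (adjusted *p* = 0.130), and 0.30 on RPKM (limma adjusted *p* = 0.348). Neither call held in the early phase alone, and *Batf3* lost its call in 11 of the 18 fits that left out 1 library. *Flt3* was at 0.0959 to 0.336 RPKM, median 0.123, with -0.20 ± 0.35 under TMM (edgeR adjusted *p* = 0.596) and 0.50 on RPKM (limma adjusted *p* = 0.00974).

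Of the 5 other class II genes 2 were higher in the tumor, *H2-DMb1* (log2 difference 1.07, edgeR adjusted *p* = 0.0107) and *H2-DMb2* (0.95, adjusted *p* = 0.0117), so that all 3 H2-DM genes passed the test. *H2-Ea-ps* (0.35, adjusted *p* = 0.412) did not, nor did *H2-Oa* (-0.60, adjusted *p* = 0.268) and *H2-Ob* (-0.96, adjusted *p* = 0.0648), whose direction turned on RPKM. All 6 costimulatory genes were higher (median 1.83, against 0.13 over all genes), first *Cd80* (4.19, adjusted *p* = 5.70e-11) and *Cd40* (2.33, adjusted *p* = 5.94e-05), as they were under the other scalings, and 4 of 5 tested were so in the early phase. Of 8 genes between interferon gamma and *Ciita* 6 were higher and 1 lower (median 0.85), first *Socs1* (3.07, adjusted *p* = 2.61e-10), a feedback inhibitor, and *Jak2* (0.96, adjusted *p* = 8.91e-08), with *Jak1* at -1.02 (adjusted *p* = 7.05e-11) but at 0.16 on RPKM. *Ifng* was at 0.187 to 2.29 RPKM in the tumors. Of 7 promoter box factors, 2 were higher, *Creb1* (1.17) and *Nfya* (1.55), and 2 lower, *Nfyb* (-0.80) and *Rfxap* (-0.40). On RPKM the lower ones turned to 0.37 and 0.78 and all 7 were called higher, as were 13443 of all 19751 genes tested. Of 7 processing genes 4 were higher and 1 lower (median 0.56), first *Cd63* (5.02), a vesicle protein of most cell types, and *Lgmn* (1.14), against *Sppl2a* (-1.78), the protease that clears the invariant chain fragment.

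Of the 10 further cDC1 genes 8 were higher and 1 lower in the tumor (median 1.12), unlike the direction of *Clec9a* and *Batf3* under TMM. The first were *Ly75* (2.25, edgeR adjusted *p* = 2.36e-12) and *Cadm1* (1.17, adjusted *p* = 1.59e-07), an adhesion molecule of many cells, and the lower one was *Id2* (-3.18, adjusted *p* = 1.68e-13), a factor that the liver itself expresses. *Xcr1* was at 1.06 ± 0.48 (adjusted *p* = 0.0476). Of 6 mature dendritic genes 5 were higher (median 2.12), first *Fscn1* (4.07, adjusted *p* = 2.29e-14), which carcinoma cells can also express, and *Cacnb3* (4.33, adjusted *p* = 2.57e-14), and 1 lower, *Socs2* (-2.80, adjusted *p* = 5.05e-05). Of 7 genes of type 2 dendritic cells 3 were higher (median 0.46), first *Klf4* (4.59) and *Notch2* (0.46), both active in many tissues, and 1 lower, *Cd209a* (-2.46, adjusted *p* = 0.000204). Of 7 plasmacytoid genes 4 were higher and 1 lower (median 0.63), first *Tcf4* (2.03) and *Klk1* (2.47), against *Ly6d* (-8.88). Of the 6 genes of identity and growth 3 were higher and 1 lower (median 0.23), first *Csf2ra* (0.98) and *Zbtb46* (0.68, adjusted *p* = 0.00313), against *Nfil3* (-1.55).

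The leukocyte markers moved apart in this comparison. *Ptprc* was higher in the tumor by 1.32 (edgeR adjusted *p* = 2.93e-06), as were 5 of 6 monocyte and macrophage genes (summed RPKM 904 to 2804) and 5 of 6 T and NK cell genes (5.96 to 27.1, with *Cd4* lower), 1 of 5 neutrophil genes was higher (9.54 to 251), 4 of 6 B cell genes were lower (1.21 to 5.87) and 5 of 6 Kupffer cell genes were lower (20.2 to 69.8, with *Adgre1* higher). On RPKM, 1 of the 6 B cell genes was called lower. Their part in the values of the 10 genes was not tested.

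Against control liver, whose samples also enter the first comparison, 8 of the 10 genes were higher in the tumor and 0 lower (edgeR), where 44.2% of 19322 genes were higher and 38.1% lower (82.3% in either direction). On RPKM *H2-DMa*, *Cd74*, *Ciita*, *Itgax*, and *Flt3* did not overlap, where 56.4% of all genes were higher and 17.1% lower with no overlap. The median log2 difference of the 10 genes was 1.51, against 0.18 over all genes. *Itgax* had the largest log2 difference of the 10, 3.99 ± 0.42 (adjusted *p* = 2.12e-07), or 15.9-fold, followed by *Ciita* at 2.67 ± 0.61 (adjusted *p* = 0.000782) and *H2-DMa* at 2.48 ± 0.42 (adjusted *p* = 4.50e-05). *H2-Aa*, *H2-Ab1*, *Cd74*, and *H2-Eb1* rose by 1.65, 1.52, 1.51, and 1.44 with adjusted *p* values of 0.0146 to 0.0322, and *Flt3* by 1.36 (adjusted *p* = 0.0212). *Batf3* was at 0.24 ± 0.43 (adjusted *p* = 0.608; 1.10 and called by limma on RPKM) and *Clec9a* at -0.49 ± 0.30 (adjusted *p* = 0.146), which turned to 0.45 on RPKM (limma adjusted *p* = 0.127). Without control mouse C1, the lowest for class II, 5 genes stayed higher, and *H2-Ab1*, *H2-Eb1*, and *Flt3* lost the call, as they did in the early phase alone. *H2-Ab1* also lost it without C6, and *H2-Eb1* without C6, C7, or any 1 of tumors M2, M4, and M5. Among the other lists, 4 of 5 class II, 5 of 7 type 2, and 6 of 6 costimulatory genes were higher and 0 lower. Of the 10 cDC1 genes 9 were higher and 1 lower, of 8 interferon gamma genes 7 and 1, of 6 mature genes 5 and 1, of 7 plasmacytoid genes 4 and 1, of 6 identity and growth genes 3 and 1, and of 7 processing genes 4 and 2. Of the 7 promoter factors 2 were higher and 3 lower, with a median of -0.02.

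Ratios within a library do not depend on its scaling. *Cd74* and the chains stood in close proportions: *Cd74* was 3.26 to 4.22 times *H2-Ab1* in control liver, 3.02 to 4.03 times in pre-metastatic liver, and 3.10 to 3.89 times in the tumor, with medians of 3.58, 3.50, and 3.66. *H2-Eb1* had medians of 0.944, 0.913, and 0.793 times *H2-Ab1*, and *H2-Aa* of 0.860, 0.775, and 0.915 times. *H2-DMa* stood higher relative to *H2-Ab1* in the tumor, at 0.0451 to 0.122 times, median 0.0733, than in control liver (0.0270 to 0.0503, median 0.0372) or pre-metastatic liver (0.0228 to 0.0356, median 0.0317). *Ciita* relative to *H2-Ab1* had medians of 0.0109, 0.0182, and 0.0232 in control liver, pre-metastatic liver, and tumor. These proportions are described and were not tested.

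The level of *Cd74* relative to *Ptprc*, a gene of all leukocytes, was tested. The ratio was 24.9 to 83.0, median 32.7, in control liver and 27.9 to 64.9, median 47.0, in pre-metastatic liver, and the pre-metastatic range lay inside that of the control livers. The log2 difference was 0.16 (exact two-sided permutation *p* = 0.581 over 2002 splits). In the tumor the ratio was 6.98 to 30.6, median 17.8, lower than in the liver of the same mouse in 9 of 9 mice. The log2 difference from pre-metastatic liver was -1.52, a 2.86-fold lower ratio (exact two-sided permutation *p* = 0.000123 over 48620 splits), and within mice the exact sign-flip *p* was 0.00391, the smallest that 9 mice allow. The result depends on the reference. Relative to *Csf1r*, the growth factor receptor of macrophages and monocytes, the tumor differed by -0.12 (exact permutation *p* = 0.708), and relative to the mean of the B cell genes *Cd79a* and *Cd79b* it was higher by 1.65 (exact permutation *p* = 0.0132). Between the livers, the difference was 0.51 relative to *Csf1r* (exact permutation *p* = 0.0884) and -0.11 relative to the B cell genes (exact permutation *p* = 0.873).

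**Figure D4:**
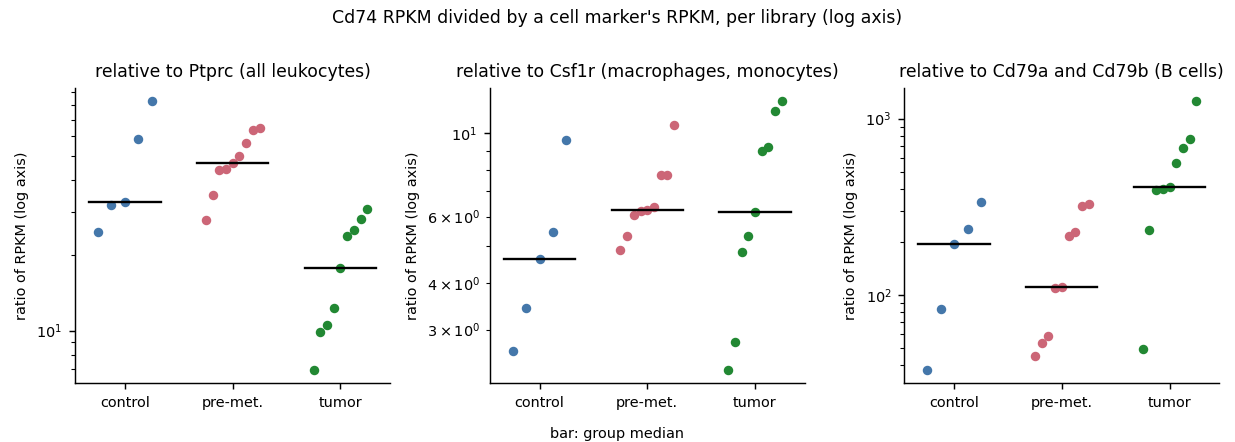
*Cd74* RPKM divided by the RPKM of *Ptprc*, of *Csf1r*, and by the geometric mean of *Cd79a* and *Cd79b* in each library (log axis), with a bar at the group median. Relative to *Ptprc* the tumors (median 17.8) lie below most livers (medians 32.7 and 47.0), relative to *Csf1r* pre-metastatic liver (6.25) and tumor (6.17) have like medians, and relative to the B cell genes the tumor median of 408 is the highest.

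Other ratios to *Ptprc* are given as a description, and *Ptprc* itself was higher by 1.44 and 1.32 on the log2 scale in the first and second comparisons. *Clec9a* relative to *Ptprc* was 0.337 to 0.509 in control liver, 0.0992 to 0.315 in pre-metastatic liver, and 0.0213 to 0.0805 in the tumor. *Batf3* had medians of 0.627, 0.418, and 0.0886 and *Itgax* of 0.0906, 0.118, and 0.155. *H2-DMa* had medians of 0.390, 0.417, and 0.345.

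Across the 9 mice, most class II genes followed *Cd74* closely in both tissues. Of 9 relations in pre-metastatic liver 5 had an adjusted *p* under 0.05 (exact permutation of Spearman's rho, adjusted over 18 relations), and of 9 in the tumor 6 did. In pre-metastatic liver *H2-Eb1* had rho = 0.983 (exact *p* = 4.96e-05, adjusted 0.000179; Pearson r = 0.992 on log2(RPKM + 1)), *H2-Ab1* 0.950 (adjusted exact *p* = 0.00106), *H2-Aa* 0.933 (adjusted exact *p* = 0.00193), and *H2-DMa* 0.900 (adjusted exact *p* = 0.00365). Without mice M5 and M10, the farthest from the median *Cd74*, r stayed at 0.854 to 0.971 for these 4. *Clec9a* had rho = 0.783 (adjusted exact *p* = 0.0282) with r = 0.741, but r fell to 0.540 without M5 and M10 (exact *p* = 0.210). Leaving them out also narrows the range of *Cd74*, so whether that relation rests on them cannot be told. *Ciita* had rho = 0.667 (adjusted exact *p* = 0.0757) with r = 0.858 (adjusted exact *p* = 0.0103), and r was 0.510 without the same mice. By Pearson's r, 8 of the 9 relations passed, all but *Flt3*. *Batf3* and *Itgax* had rho of 0.683 and 0.617, with r of 0.312 and 0.541 without M5 and M10.

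In the tumor, *H2-Ab1* and *H2-Eb1* ranked the 9 mice in the order of *Cd74* (rho = 1, exact *p* = 5.51e-06, the smallest that 9 mice allow, adjusted 4.96e-05). *H2-Aa* and *Ciita* had rho = 0.983 (adjusted exact *p* = 0.000179), *Batf3* 0.917 (adjusted exact *p* = 0.00295), and *H2-DMa* 0.900 (adjusted exact *p* = 0.00365). Because tumors M2, M4, and M5 stood apart from the other 6 in *Ciita*, the relations were computed again in those 6, a choice made after seeing the values. There *H2-Ab1*, *H2-Eb1*, and *Ciita* had rho = 1 (exact *p* = 0.00278, adjusted over 9 relations 0.00833), *H2-Aa* 0.943 (adjusted exact *p* = 0.0375), *H2-DMa* 0.829 (adjusted exact *p* = 0.105), and *Batf3* 0.771 (adjusted exact *p* = 0.154). *Clec9a* had rho = 0.133 over the 9 tumors (exact *p* = 0.744), *Flt3* 0.367 (exact *p* = 0.336), and *Itgax* 0.700 (exact *p* = 0.0433, adjusted 0.0649). All these values share the library's total and, in tissue, the amount of leukocyte RNA, so they are no measure of shared control. Within clock phases, the count of relations under 0.05 was 6 in each tissue, but the genes differed in pre-metastatic liver. There *Clec9a* no longer passed (adjusted exact *p* = 0.0553), whereas *Itgax* (rho = 0.907, adjusted exact *p* = 0.00469) and *Batf3* (rho = 0.854, adjusted exact *p* = 0.00909) did.

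**Figure D5:**
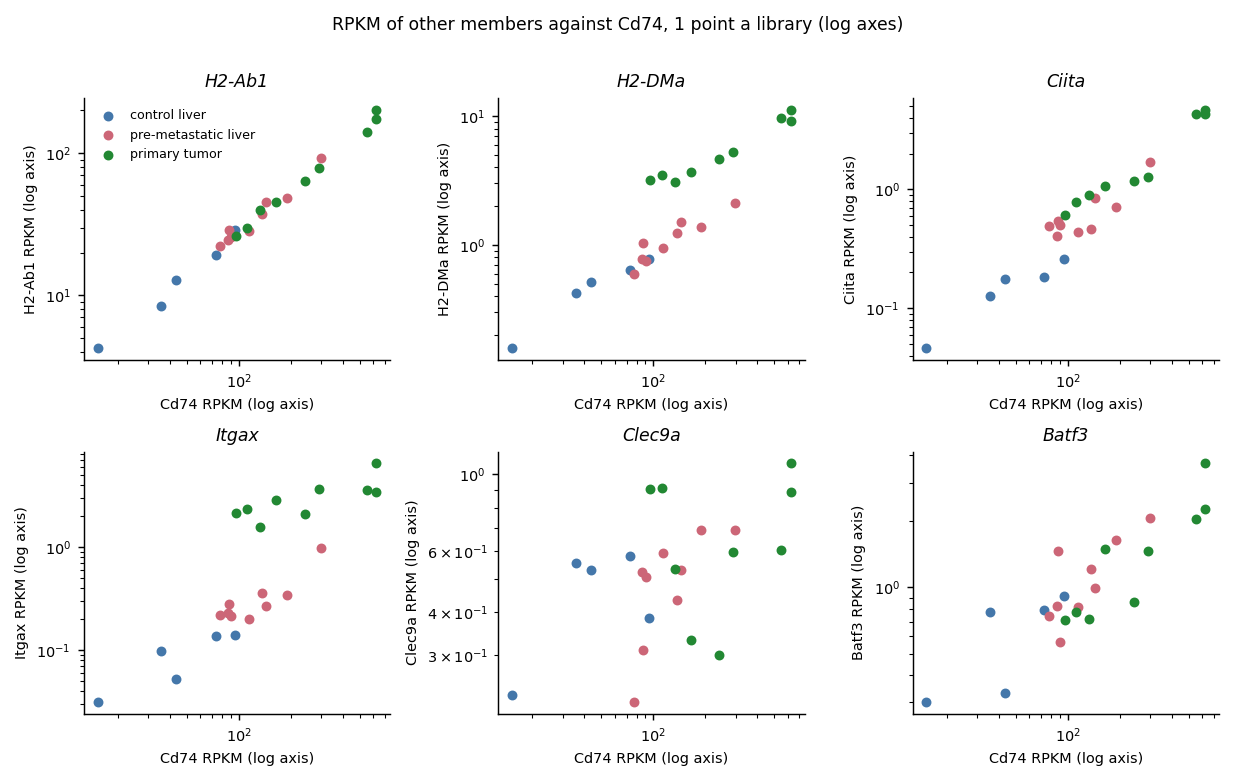
RPKM of 6 of the genes against *Cd74* in each of the 23 libraries (log axes), colored by group. *H2-Ab1* falls on 1 line through all groups, *H2-DMa* and *Itgax* lie higher in the tumor than in liver at the same *Cd74*, and *Clec9a* shows no such line in the tumors (rho = 0.133).

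Whether the level in a tumor went with the level in the liver of the same mouse was asked for each gene. Of 10 relations, 1 for each gene, 0 had an exact permutation *p* under 0.05 before adjustment by Spearman's rho, and 0 after it. The Spearman coefficients ranged from -0.167 (*Ciita*) to 0.617 (*Clec9a*, exact *p* = 0.0857, adjusted over 10 relations 0.857; Pearson r = 0.678, exact *p* = 0.0450, adjusted 0.450). *Cd74* had rho = 0.117 (exact *p* = 0.776). Mouse M10 had the second highest *Cd74* of the livers and the lowest of the tumors, and M2, M4, and M5 the highest of the tumors. With 9 mice, weaker relations would not have been detected.

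Outside the 10 genes, *H2-Ea-ps* was the gene most like *Cd74* in livers and in tumors. Over the 14 livers, by Pearson's r of log2(RPKM + 1) across 16989 genes, they were *H2-Ea-ps* (0.994), *H2-DMb1* (0.977), *Irf8* (0.947), *H2-DMb2* (0.943), *Cd52* (0.939), an unnamed gene listed by its Ensembl number (0.938), *Serpina3g* (0.938), *Fyb* (0.934), *Arhgap30* (0.932), and *Psmb8* (0.929). Over the 9 tumors, across 19577 genes, they were *H2-Ea-ps* (0.986), *Ptprj* (0.981), *H2-DMb1* (0.975), *H2-DMb2* (0.972), *Gbgt1* (0.968), *Tlr12* (0.966), *Mmp25* (0.966), *Cers4* (0.959), *Myh10* (0.958), and *Slc11a1* (0.957). *H2-Ea-ps*, *H2-DMb1*, and *H2-DMb2* stood on both lists. Among all genes, *Ciita* was in place 138 in the livers (r = 0.863) and in place 15 in the tumors (r = 0.956), *Ptprc* in places 148 and 359, and *Cd79a*, a B cell gene, had r = 0.302 in the livers and -0.228 in the tumors. These are descriptions over 14 and 9 libraries, with no test. The 14 livers pool control and pre-metastatic liver, and the difference between those groups was not removed. A gene that differs between them can resemble *Cd74* through that alone, so places in livers and in tumors are not directly comparable.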

How the data were processed

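The authors deposited read counts per gene and RPKM values for 23 poly(A) libraries. The submitters' processing notes name HISAT2, HISAT, HTSeq 0.6.0, and build mm10. RPKM recomputed from counts, gene length, and library total differed from the deposited RPKM by at most 1.75e-06 of the value. Groups were taken from the sample labels. Counts were tested with edgeR 4.0.16 (R 4.3.3; quasi-likelihood test, TMM scaling, keeping genes that reached 10 counts in 5 or more of the libraries compared, Benjamini-Hochberg adjustment over all genes tested, threshold 0.05), which gave every adjusted *p* of a log2 difference unless DESeq2 1.42.0 or limma 3.58.1 (on log2(RPKM + 0.1)) is named. The fits were tested on counts simulated for pre-metastatic against control liver only, with equal numbers of genes raised and lowered. The tumor comparisons, where directions depend on the scaling, were not simulated. Ratios and correlations were tested by exact permutation in Python 3.11.15 with scipy 1.17.1. Named genes were the 10 members, the genes of lowest *p* in each list and direction, those a sentence compares with a member, and the 10 genes most like *Cd74*. The members and lists were chosen with earlier results of these data known, and 1 of 132 list genes was not matched. *p*-values measure the spread between these mice. Tumor and liver numbers were taken to mark the same animal, from the sample labels and the paper's description of the tissues as matched. Over 19751 genes, the mean correlation of deviations within a mouse was 0.0700, and single mice ran from -0.0304 to 0.177. The mean between mice was -0.00900. Centering each gene within a tissue ties that value to the mean within a mouse, so the contrast is no separate evidence for the pairing.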

Additional observations from a re-analysis of the deposited data

Results flagged for a closer look

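Of 33 sets of values of 1 gene or ratio in 1 group, 8 held a library far from the rest by Dixon's test, which chance gives in about 1 of 20 sets. The liver of mouse M5 stood above the other pre-metastatic livers for 6 genes: *H2-Aa* (71.2 RPKM), *H2-Ab1* (92.7 RPKM), *H2-Eb1* (86.6 RPKM), *Cd74* (298 RPKM), *Ciita* (1.69 RPKM), and *Itgax* (0.970 RPKM). Without it all 6 remained higher than in control liver by edgeR. In the tumors, *Itgax* was far above the rest in M4 (6.45 RPKM) and *Flt3* in M2 (0.336 RPKM). These genes share libraries, so the flags are not independent.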

How the results depend on the processing

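Counts of called genes are given in place of the reported ones. In the early clock phase alone, 2 genes were higher in pre-metastatic than control liver, 5 were higher in the tumor than in control liver, and 0 were lower in tumor against pre-metastatic liver. By limma on log2(RPKM + 0.1), tumor against pre-metastatic liver gave 7 genes higher and 0 lower, where 13443 of all 19751 genes tested were higher and 4195 lower. The direction turned there for *Flt3* (0.50), *Clec9a* (0.35), *Batf3* (0.30), and *H2-Eb1* (0.84), as it did for *Clec9a* (0.45) against control liver. Upper-quartile scaling gave 0 lower genes and no filter on low counts gave 1. Uncalled class II differences near 0 in tumor against pre-metastatic liver also turned: *H2-Eb1* under upper-quartile scaling (0.15), with no filter (0.037), and in the early phase (0.039), *H2-Ab1* under DESeq2 (-0.018) and RLE size factors (-0.025), and *H2-Ab1* (-0.23), *Cd74* (-0.17), and *H2-Aa* (-0.049) under the replicate block. Relative to *Cd79a* and *Cd79b*, *Cd74* was higher in the tumor by 1.65, and relative to *Csf1r* the difference was -0.12. Between the livers, the uncalled ratio difference turned relative to *Cd79a* and *Cd79b* (-0.11) and in the early phase (-0.024). By Pearson's r, 8 genes were related to *Cd74* in pre-metastatic liver.

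With 1 library left out, the count of higher genes ran from 7 to 8 in pre-metastatic against control liver, was 2 throughout in tumor against pre-metastatic liver, and ran from 5 to 8 in tumor against control liver. Lower genes in tumor against pre-metastatic liver ran from 1 to 2. The ratio of *Cd74* to *Ptprc* in tumor against liver ran from -1.63 to -1.36, and in liver against liver from -0.023 to 0.41. In tumor against pre-metastatic liver, *H2-Ab1* ran from -0.22 to 0.22, *H2-Eb1* from -0.27 to 0.18, and *Cd74* from -0.13 to 0.22, and in tumor against control liver *Batf3* ran from -0.022 to 0.40, all without a call. The count of relations with *Cd74* ran from 4 to 6 in pre-metastatic liver and was 6 throughout in the tumor. With the mouse as a replicate block (paired fit), 2 genes were higher and 2 lower in the tumor than in liver, and no call of the 10 genes changed. Clock phase as a term, and the 6 tumors alone (4 relations), were chosen after seeing the data, and the former kept all 3 counts of higher genes. Of the single-gene differences, 185 kept their side and direction under other settings, 6 gained a call, 16 lost it, and 13 turned, and with 1 library left out 408 kept both, 2 gained a call, 29 lost it, and 21 turned. The causes were not tested, and in the early phase alone the clock phase and the number of samples change together. Depth limits *Flt3*, with 1 to 18 counts in control livers.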
